A study of Mus musculus with 8 samples.

Results

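The interferon-induced transmembrane (IFITM) genes examined here were Ifitm1, Ifitm2, Ifitm3 and Ifitm6, taken by symbol from all 8 single-cell matrices. They are 4 of the 19024 gene symbols in these matrices. The 4 were chosen by their measured levels: an earlier look at these data showed them lower in dendritic cells, neutrophils and NK cells of tumors from hosts without Atg7. Genotype differences in those classes are therefore given as descriptions, without a test.

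IFITM proteins are small proteins that sit in the plasma membrane and in endosomal membranes and make these membranes harder for enveloped viruses to fuse with. Interferons induce Ifitm1, Ifitm2 and Ifitm3 in most cell types. Ifitm3 acts mainly in late endosomes and lysosomes, Ifitm1 mainly at the cell surface, and Ifitm6 is a mouse paralog known mostly from blood-derived cells. Atg7 is the activating enzyme of the conjugation systems that build autophagosomes, which deliver their cargo to the same late endosomes and lysosomes.

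All hosts were C57BL/6 mice with 1 UbcreERT2 allele, a tamoxifen-activated Cre driven by a ubiquitin promoter. Hosts were either Atg7+/+, called wild type (libraries 1, 2, 5 and 6), or Atg7f/f, called deleted (libraries 3, 4, 7 and 8). Both genotypes received tamoxifen for 4 days, and after 1 week cells of MB49, a mouse urothelial cancer line, were injected under the skin at 2 tumors per mouse and grown for 3 weeks. Tumors were dissociated and passed over a density gradient, and a 10x Genomics 5' kit was used. Neither host age nor the mouse behind each tumor was given, so 2 tumors of 1 mouse may be among the libraries. P-values then measure the spread between libraries only. The injected cells were MB49 in both groups, so the host genotype applies to host cells and not to the malignant cells.

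After filtering, 28495 of 29496 deposited cells were kept, between 945 (deleted, library 7) and 5796 (wild type, library 5), and total UMIs per library ran from 4312200 to 58687129. Levels are UMIs per 10000 UMIs of a cell, averaged over all cells that 1 library holds of a class, so each library gives 1 value. Differences are on the log2(level + 0.2) scale, which understates the change of low genes. A class was used in libraries with at least 20 of its cells, so wild-type library 1 dropped out for NK-like cells, of which it held 4. Dendritic-like cells were few, with 20 to 164 per library, and NK-like cells numbered 24 to 97 in the 7 libraries used. Judged by shared barcodes and not by a label, libraries 1 to 4 and 5 to 8 may use different cell barcode lists. Each of these library sets holds 2 libraries of each genotype. A pair of libraries shared 0 to 5 barcodes within libraries 1 to 4 and 7 to 46 within libraries 5 to 8. A pair across the sets shared 0 or 1. In monocyte/macrophage-like cells, Atg7 stood at 0.167 to 0.389 UMIs per 10000 in wild-type and 0.0243 to 0.147 in deleted libraries. The ranges overlapped in 4 other host classes, at 0 to 0.314 and 0 to 0.136 in dendritic-like, 0.183 to 0.617 and 0.278 to 0.771 in neutrophil-like, 0 to 0.278 and 0 to 0.0957 in NK-like, and 0.0945 to 0.282 and 0.119 to 0.187 in T-like cells. The deleted part of Atg7 is not stated, so reads near the 5' end may lie outside it.

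The 4 genes lie together on mouse chromosome 7 in the GENCODE M21 annotation of mm10, within 63088 bases. Ifitm2 (ENSMUSG00000060591, minus strand) spans chr7:140954837-140955987, and Ifitm1 (ENSMUSG00000025491, plus strand) spans chr7:140967221-140969825. Ifitm3 (ENSMUSG00000025492, minus strand) spans chr7:141009586-141010770 and Ifitm6 (ENSMUSG00000059108, minus strand) spans chr7:141015699-141017924. The coding sequences of Ifitm1, Ifitm2 and Ifitm3 are close relatives, with 80.9% to 82.1% of aligned bases identical, and Ifitm6 shares 65.7% to 68.8% with each of them. No stretch of 91 bases, the length of the cDNA read, is shared between any 2 members. For Ifitm2, 37.5% of such stretches recur in the gene models Gm11951, Gm45717 or Gm8865, so its counts are less certain than those of the other 3 members, which share none with any annotated transcript.

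Because all 4 members were lower together in dendritic-like cells, the sequences before their RefSeq start sites are shown, from the RefSeq windows for GRCm38.p6, which held all 4 genes. Each is written 5' to 3' along the gene from base -250, counted from the RefSeq start site, up to the next exon that GENCODE annotates, and capitals mark the motif matches. For Ifitm2 and Ifitm3 the RefSeq start lies 26 bases inside the GENCODE gene, and the printed bases precede the gene. For Ifitm1 and Ifitm6 it lies 855 and 1032 bases inside, so the printed bases are within the GENCODE gene, outside its exons, and the sequence before the outermost GENCODE start was not searched.
Ifitm1, chr7:140967826-140968027, plus strand: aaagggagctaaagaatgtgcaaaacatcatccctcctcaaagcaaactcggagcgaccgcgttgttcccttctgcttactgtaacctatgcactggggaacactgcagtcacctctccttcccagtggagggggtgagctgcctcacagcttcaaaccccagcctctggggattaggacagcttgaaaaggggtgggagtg
Ifitm2, chr7:140955988-140956211, minus strand: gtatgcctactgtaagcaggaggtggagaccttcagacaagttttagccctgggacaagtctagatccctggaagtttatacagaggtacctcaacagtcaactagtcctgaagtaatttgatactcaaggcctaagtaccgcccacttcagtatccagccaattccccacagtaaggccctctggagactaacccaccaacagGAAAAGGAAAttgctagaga
Ifitm3, chr7:141010771-141010994, minus strand: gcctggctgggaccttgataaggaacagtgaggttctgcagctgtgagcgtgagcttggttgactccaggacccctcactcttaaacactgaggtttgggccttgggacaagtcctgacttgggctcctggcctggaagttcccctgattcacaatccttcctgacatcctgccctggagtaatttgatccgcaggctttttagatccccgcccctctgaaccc
Ifitm6, chr7:141016909-141017142, minus strand: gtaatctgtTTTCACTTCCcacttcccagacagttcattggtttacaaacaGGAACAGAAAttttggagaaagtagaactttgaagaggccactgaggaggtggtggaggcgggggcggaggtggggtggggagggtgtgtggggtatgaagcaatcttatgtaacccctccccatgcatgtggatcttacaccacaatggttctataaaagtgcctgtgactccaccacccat
The letter patterns below were searched on both strands in windows that run on to base 50 after the start. GAAA, any 2 bases and GAAA again is the core of the interferon-stimulated response element, the site of the complex that relays type I interferon. TTCNNNGAA is the site type of STAT dimers used by interferon gamma. GGAA, any 2 bases and GAAA joins an ETS to an IRF half-site. Among all 32817 mouse windows of this length, 3.43% held the interferon-stimulated pattern, 8.29% the STAT pattern and 2.72% the ETS-IRF pattern.

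The Ifitm2 window held 1 match to the interferon-stimulated pattern, from base -46 to -37, marked above. Ifitm3 had 2 matches to it just after the start, at bases 3 to 12 and 20 to 29, with a TTCNNNGAA match between them that overlaps the second at bases 14 to 22. Those stretches are given with the match in capitals.
Ifitm3, first match: aaattcagGAAAAGGAAActtctgag
Ifitm3, second match: acttctgaGAAACCGAAActgccgca
Ifitm3, STAT match: aaggaaacTTCTGAGAAaccgaaac
The first Ifitm3 match carries the same 10 letters as the Ifitm2 match. Ifitm6 held 2 matches to the ETS-IRF pattern, at bases -241 to -232 on the opposite strand and -199 to -190, and 1 STAT match at bases -10 to -2. None of the 3 patterns occurred in the Ifitm1 window, which lies inside the GENCODE gene. A match describes letters only, and the absence of a match says only that these letters are not in this window.

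Cells were named from marker genes, as dendritic-like, neutrophil-like and so on, and 7 classes were compared. The members differed in where they were found, as the plot of levels by class and library shows. Over both genotypes, Ifitm1 was highest in dendritic-like (25.0 ± 20.7 UMIs per 10000, SD, n = 8) and neutrophil-like cells (23.6 ± 11.3, SD, n = 8). It stood at 3.23 ± 2.69 in monocyte/macrophage-like and 3.20 ± 2.72 in T-like cells (SD, n = 8), and at 0.0721 ± 0.0510 in malignant urothelial-like cells (SD, n = 8). Within libraries, Ifitm1 was higher in neutrophil-like than in monocyte/macrophage-like cells in 8 of 8, by 2.996 on the log2 scale (SD 0.94, two-sided exact sign-flip permutation p = 0.00781, adjusted over 6 neighbouring pairs p = 0.0234, n = 8). The step from fibroblast-like cells at 0.669 down to malignant-like cells also held in 8 of 8 libraries (1.57, SD 0.83, exact permutation p = 0.00781, adjusted p = 0.0234). No other pair of neighbours in the order of Ifitm1 differed beyond its spread, dendritic-like against neutrophil-like cells included. The orders pool the genotypes, and in deleted hosts alone Ifitm1 was higher on average in neutrophil-like (16.0) than in dendritic-like cells (10.3).

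**Figure D1:**
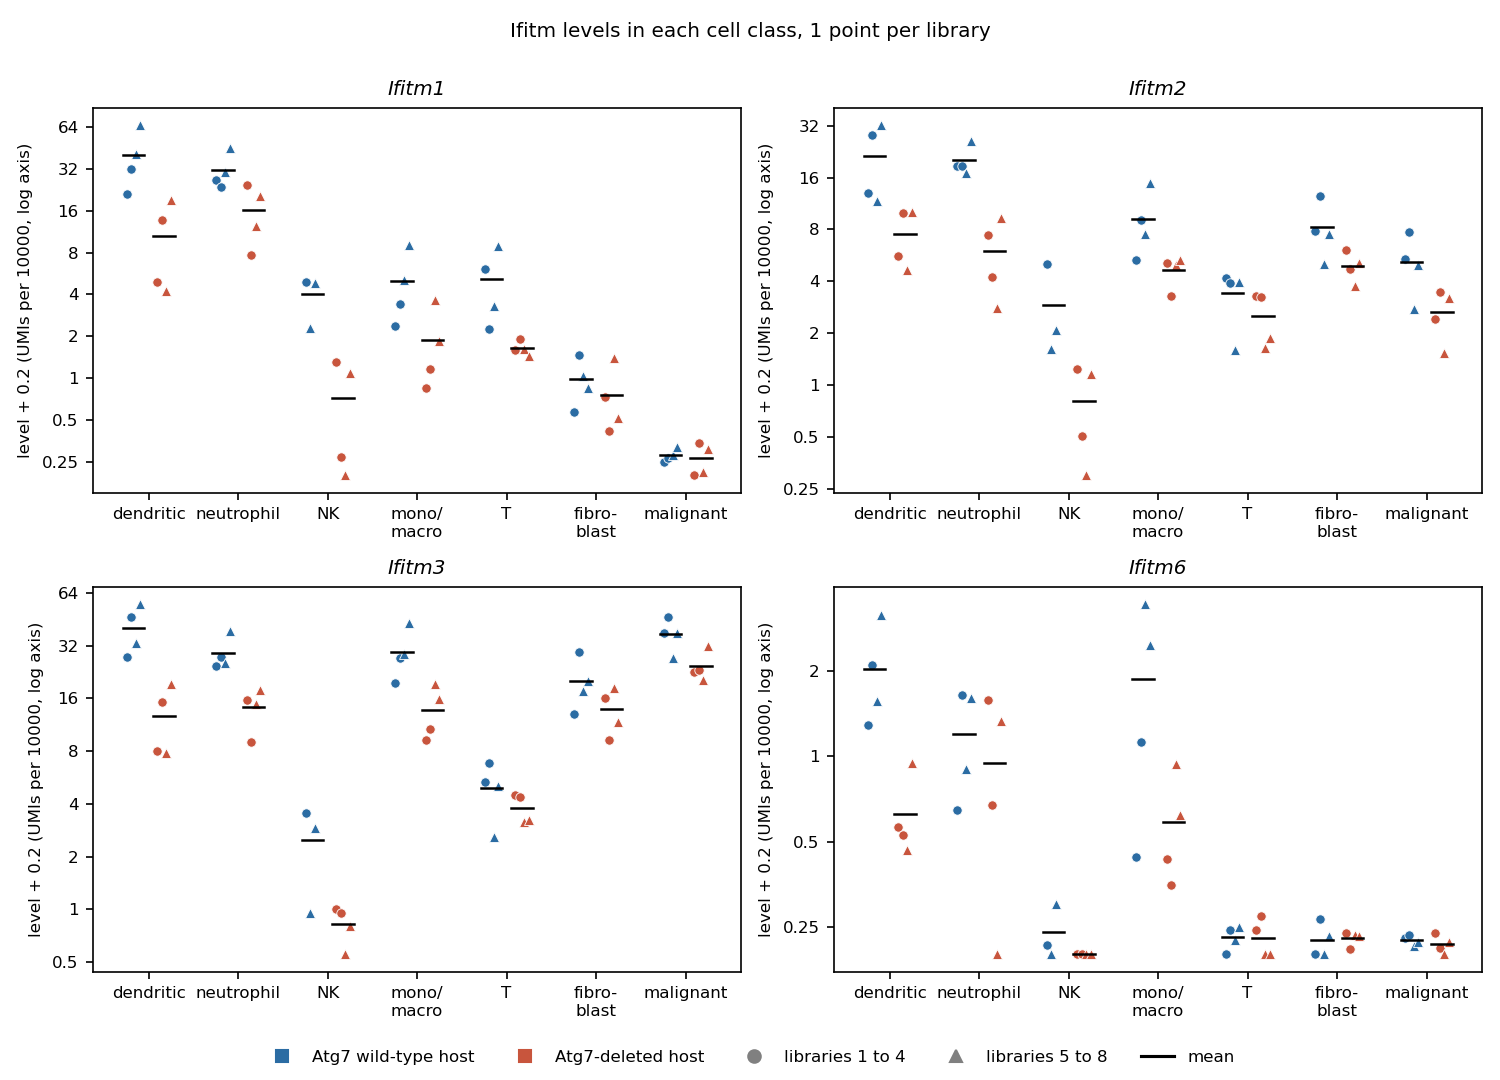
Each panel is 1 Ifitm gene, and each point is the mean level of 1 library in 1 cell class, as UMIs per 10000 plus 0.2 on a log axis. Blue is the wild-type and red the deleted host, circles are libraries 1 to 4 and triangles 5 to 8, and black lines are means. In dendritic-like cells all 4 deleted libraries lie below all 4 wild-type libraries for each of the 4 genes, and Ifitm1 and Ifitm6 are near 0 in malignant-like cells.

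Ifitm3 had another order. Over both genotypes its level was highest in malignant urothelial-like cells (30.8 ± 9.27 UMIs per 10000, SD, n = 8), followed by dendritic-like (26.4 ± 17.5), neutrophil-like (21.5 ± 9.37), monocyte/macrophage-like (21.4 ± 11.0) and fibroblast-like cells (16.7 ± 6.20). Neighbours among those 5 classes did not differ beyond their spread, and in wild-type hosts alone the mean was 40.4 in dendritic-like and 37.2 in malignant-like cells. A step followed to T-like cells (4.18 ± 1.38), lower than fibroblast-like cells in 8 of 8 libraries (log2 difference 1.93, SD 0.57, exact permutation p = 0.00781, adjusted p = 0.0469). NK-like cells were lower again (1.33 ± 1.19, n = 7), in 7 of 7 libraries (1.72, SD 0.67, exact permutation p = 0.0156, adjusted p = 0.0469).

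Ifitm2 spread more evenly, from 14.2 ± 10.2 UMIs per 10000 in dendritic-like (SD, n = 8) and 12.8 ± 8.27 in neutrophil-like cells to 2.77 ± 1.10 in T-like and 1.51 ± 1.59 in NK-like cells. Of its neighbouring pairs, fibroblast-like (6.37) against malignant-like cells (3.73) passed, at 0.81 on the log2 scale in 8 of 8 libraries (SD 0.34, exact permutation p = 0.00781, adjusted p = 0.0469). Ifitm6 was a gene of the myeloid classes. Its level was 1.13 ± 0.93 in dendritic-like, 1.03 ± 1.13 in monocyte/macrophage-like and 0.875 ± 0.545 in neutrophil-like cells (SD, n = 8), and 0.0168 to 0.0294 on average in the other 4 classes. The step from neutrophil-like to T-like cells was 1.99 on the log2 scale in 7 of 8 libraries and missed the threshold over 6 pairs (exact permutation p = 0.0156, adjusted p = 0.0938).

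The make-up of the family therefore changed from class to class. This 5' assay counts 1 tag per captured molecule whatever the gene length, and shares below are of the summed UMIs per 10000 of the 4 members in wild-type libraries. Ifitm3 made up 88.3% in malignant-like, 69.1% in fibroblast-like and 66.6% in monocyte/macrophage-like cells. Dendritic-like and neutrophil-like cells carried Ifitm1 and Ifitm3 in similar amounts, with 38.1% and 38.2% Ifitm1 and 40.0% and 35.8% Ifitm3. Smaller classes were seen in single libraries. Endothelial-like cells of deleted libraries 3 and 4 had Ifitm3 at 17.9 and 25.0 with almost no Ifitm1, at 0 and 0.0654. In the mast/basophil-like cells of the same libraries Ifitm1 had the highest mean level of the members, at 6.51 and 3.45, on 106 and 11 UMIs. By share of cells with a UMI, Ifitm1 was below Ifitm3, at 7.84% against 26.5% of 102 cells in library 3. In library 4 the shares were 12.5% and 16.7% of 24 cells.

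The first comparison asked how the members differed with the Atg7 genotype of the host in dendritic-like cells, which take up antigen and present it to T cells. Every member had its 4 deleted libraries below its 4 wild-type libraries, and means were 2.87 to 4.27 times higher in wild-type hosts. Of all 7267 genes tested in this class, 1.8% had every deleted library below every wild-type library. The rule that chose the members used this contrast, so nothing is read from their count. The 4 members together summed to 103 ± 39.9 UMIs per 10000 in wild-type and 30.5 ± 15.8 in deleted libraries (SD, n = 4 each).

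The Ifitm1 level read 20.8, 31.8, 40.8 and 65.8 UMIs per 10000 for wild-type hosts (libraries 1, 2, 5, 6), compared with 4.70, 13.4, 3.996 and 18.95 for deleted hosts (libraries 3, 4, 7, 8). The highest deleted library was just under the lowest wild-type library, and deleted libraries 3 and 7 were far below both. The means, 39.8 ± 19.2 and 10.3 ± 7.203 (SD, n = 4 each), differed 3.88-fold, and the log2 difference was -2.101 with an SE of 0.64.

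For Ifitm3 the wild-type hosts gave 27.3, 46.5, 32.8 and 55.0 UMIs per 10000, compared with 7.79, 15.1, 7.57 and 19.2 for the deleted hosts. The 2 genotypes did not overlap, and the same 2 deleted libraries, 3 and 7, were lowest. Its means of 40.4 ± 12.6 and 12.4 ± 5.73 (SD, n = 4 each) differed 3.25-fold, with a log2 difference of -1.75 (SE 0.40). The difference was alike in both library sets, 3.23-fold in libraries 1 to 4 and 3.27-fold in libraries 5 to 8.

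For Ifitm2 wild-type hosts gave 12.9, 28.0, 11.5 and 32.1 UMIs per 10000, compared with 5.40, 9.70, 4.46 and 9.92 for deleted hosts. Wild-type libraries 1 and 5 came close to deleted libraries 4 and 8, and the means of 21.1 ± 10.4 and 7.37 ± 2.85 (SD, n = 4 each) differed 2.87-fold. Ifitm6 was the scarcest member, with 1.09, 1.90, 1.37 and 2.95 UMIs per 10000 for wild-type hosts, compared with 0.365, 0.329, 0.267 and 0.750 for deleted hosts. Its means of 1.83 ± 0.82 and 0.428 ± 0.219 (SD, n = 4 each) differed 4.27-fold, on 225 wild-type and 143 deleted UMIs in all.

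Shares of cells with the transcripts differed too. With every dendritic-like cell thinned to 1000 UMIs, Ifitm1, Ifitm2 and Ifitm3 were all 3 detected in 50.3% ± 11.5 of wild-type and 16.4% ± 9.32 of deleted cells (SD, n = 4 each). None of the 4 members was detected in 7.33% ± 4.01 of wild-type and 24.5% ± 8.67 of deleted cells. For Ifitm3 alone, the thinned share of cells with a UMI was 83.4% ± 4.48 against 53.0% ± 10.5, and the unthinned share 92.6% ± 1.71 against 78.9% ± 8.77. Thinning left out 22 of 279 wild-type and 28 of 408 deleted cells. Median UMIs per cell in this class were 2814.5 to 5269.5 in wild-type and 4154 to 9777 in deleted libraries, which overlapped. The thinned shares of cells with at least 3 Ifitm3 UMIs were 59.9% and 16.8%.

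The 10 dendritic markers summed to 15.6 to 29.4 UMIs per 10000 in wild-type and 19.8 to 52.4 in deleted libraries, and none was at 0 everywhere. Of other cell types, the 11 monocyte and macrophage markers summed to 6.36 to 26.4 and 4.76 to 28.9. The 9 neutrophil markers summed to 6.78 to 11.8 UMIs per 10000 in wild-type and 1.12 to 9.24 in deleted libraries, against 486 to 774 in wild-type neutrophil-like cells themselves, and none of the 9 was at 0 everywhere. Malignant markers stood at 0.754% to 12.7% of their malignant-cell level in wild-type and at 0.0592% to 1.499% in deleted libraries, with the highest value in wild-type library 1. A carry-over of that size would bring at most 4.79 Ifitm3 UMIs per 10000, and with that part subtracted the Ifitm3 difference was -1.68. Fibroblast markers ran from 0 to 0.566 in wild-type and from 0.118 to 13.8 in deleted libraries. Without overlap between genotypes were the summed NK markers (1.93 to 2.89 in wild-type, 0.525 to 1.88 in deleted libraries, with Ncr1 and Klra8 at 0), endothelial markers (0.349 to 0.679 and 0.0620 to 0.287, Cldn5 at 0) and B markers (0.102 to 0.286 and 0.385 to 1.36, with Ms4a1 and Pax5 at 0). The part of these lists in the result was not tested.

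Dendritic-like cells with a UMI of Ccr7, the receptor that guides mature dendritic cells to lymph nodes, were compared with those without. Their share was 53.3% ± 6.29 in wild-type and 49.4% ± 13.2 in deleted libraries (SD, n = 4 each). The genotype difference of Ifitm1 was 4.19-fold in cells with Ccr7 (46.3 against 11.1) and 3.83-fold in cells without it (38.8 against 10.1). Ifitm3 differed 3.36-fold and 3.23-fold. Between the subsets, Ifitm6 was lower in the cells with Ccr7 in 7 of 7 libraries (0.804 against 1.54, log2 difference -0.84, exact permutation p = 0.0156, adjusted over 17 comparisons p = 0.0295). Ifitm1, Ifitm2 and Ifitm3 did not pass (adjusted exact permutation p from 0.145 to 0.664).

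Neutrophil-like cells, short-lived phagocytes, gave the second comparison. All 4 members had lower means in deleted hosts, and 2 of them, Ifitm2 and Ifitm3, had every deleted library below every wild-type library, against 2.96% of the 2334 genes tested. Again this contrast had chosen the members. Ifitm2 read 18.4, 18.5, 16.9 and 26.0 UMIs per 10000 for wild-type hosts (libraries 1, 2, 5, 6), compared with 7.25, 4.02, 2.61 and 9.15 for deleted hosts (libraries 3, 4, 7, 8). A wide gap separated the genotypes, and the means of 19.9 ± 4.12 and 5.76 ± 2.98 (SD, n = 4 each) differed 3.46-fold (log2 difference -1.89, SE 0.42).

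For Ifitm3 the levels were 24.4, 27.3, 25.1 and 38.7 against 15.4, 8.79, 14.6 and 17.6, with no overlap and a 2.05-fold difference of means. For Ifitm1 the values were 26.3, 23.6, 30.1 and 44.8 against 24.1, 7.50, 12.2 and 20.05. Deleted library 3 fell within the wild-type range, so the genotypes overlapped, and the means of 31.2 ± 9.42 and 16.0 ± 7.51 (SD, n = 4 each) differed 1.95-fold. Ifitm6 overlapped widely, at 0.447, 1.44, 0.701 and 1.41 against 1.39, 0.472, 0 and 1.14. Its log2 difference was -0.61, and 0.01 without deleted library 7, which had 39 neutrophil-like cells and no Ifitm6 UMI.

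Neutrophil-like cells in which a UMI of Cxcr2 was seen, the chemokine receptor of mature neutrophils, held more of every member than those without. Ifitm1 was 36.9 ± 10.9 against 21.0 ± 12.2 UMIs per 10000 (SD, n = 7) and Ifitm3 30.3 ± 11.7 against 19.97 ± 9.67. Ifitm2 (20.9 against 12.4) and Ifitm6 (2.09 against 0.645) followed the same direction. Each member was higher in 7 of 7 libraries, with log2 differences from 0.69 to 1.59 (two-sided exact sign-flip permutation p = 0.0156, adjusted p = 0.0295 for each of the 4). The smallest p that 7 libraries allow is 0.0156, and cells with a Cxcr2 UMI had the higher median depth in each of these libraries (773 to 2266 against 658.5 to 1644 UMIs per cell), whose part in the result was not tested.

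The genotypes were then set side by side within each subset. In cells without Cxcr2, Ifitm1 was 28.1 ± 10.7 in wild-type and 10.9 ± 5.85 in deleted libraries, with no overlap (SD, n = 4 each). In cells with Cxcr2 it was 39.6 ± 8.76 (n = 4) and 33.3 ± 14.4 (n = 3), and the ranges overlapped. Ifitm2 and Ifitm3 had every deleted library below every wild-type library in both subsets, at 4.34-fold and 2.30-fold without Cxcr2 and 1.95-fold and 1.65-fold with it. Whether the folds differ between subsets was not tested. The share of cells with Cxcr2 was 26.5% ± 13.6 and 20.9% ± 11.2 (SD, n = 4 each), and the summed neutrophil markers were 486 to 774 in wild-type against 257 to 535 in deleted libraries, whose part in the result was not tested.

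**Figure D2:**
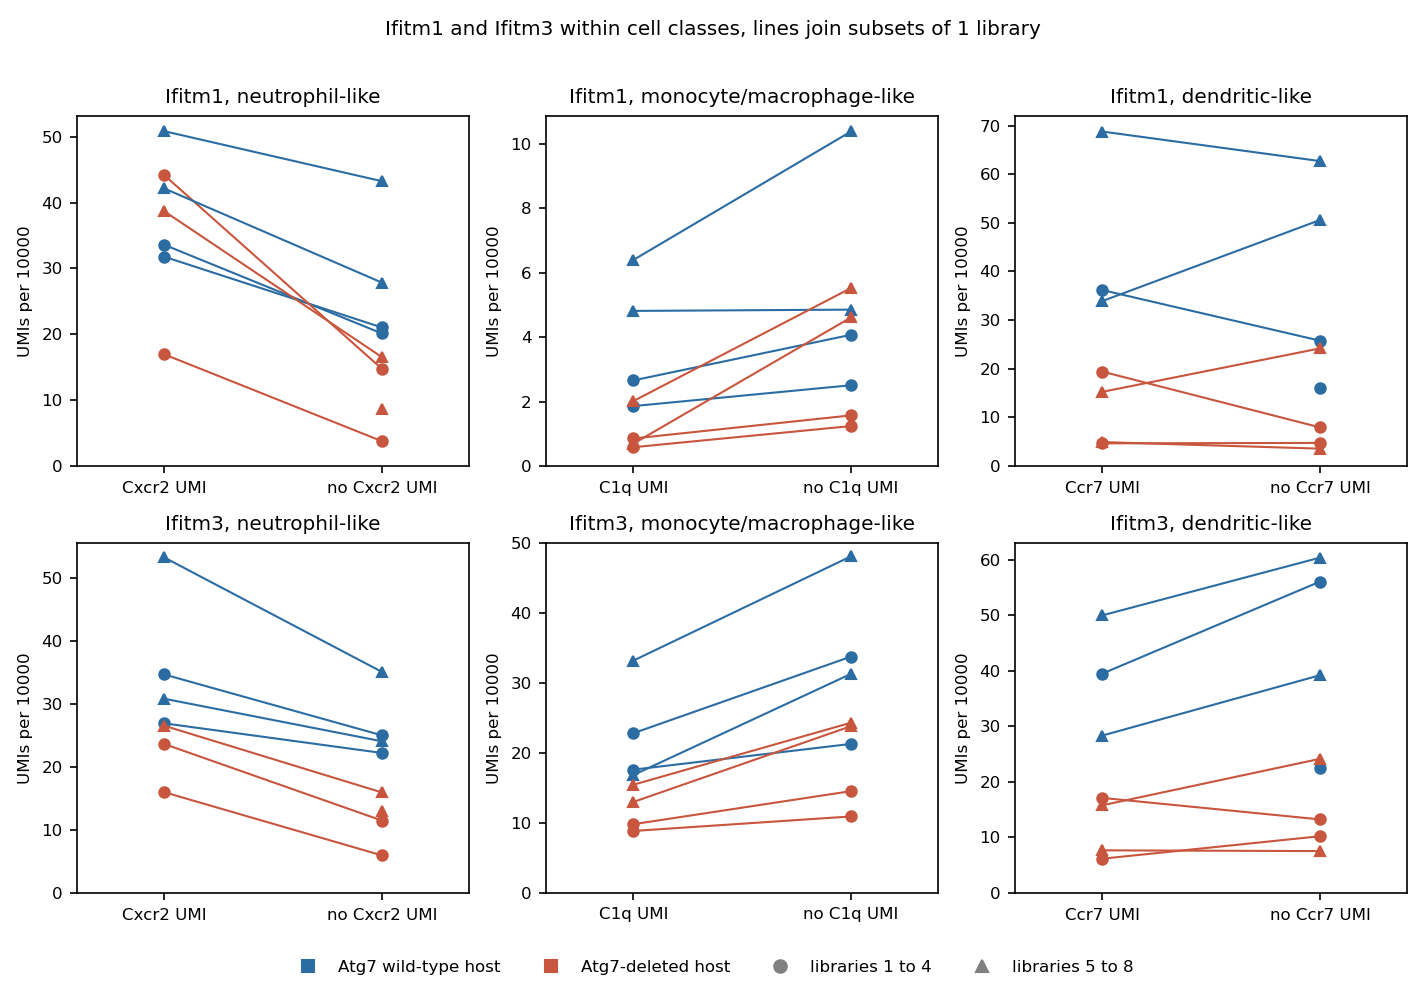
Levels of Ifitm1 (top) and Ifitm3 (bottom) in UMIs per 10000, on axes from 0, in subsets of neutrophil-like, monocyte/macrophage-like and dendritic-like cells. A line joins the 2 subsets of 1 library, blue for wild-type and red for deleted hosts, and a subset with under 10 cells has no point. Every line falls from cells with a Cxcr2 UMI to cells without, and every line rises from cells with a C1q UMI to cells without.

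The third class was NK-like cells, cytotoxic lymphocytes. Mean levels stood below those of the 3 myeloid classes for each member, and 3 members passed the 5% filter on detected cells. Ifitm1 and Ifitm2 had every deleted library below every wild-type library, against 2.5% of the 6645 genes tested, in a contrast that the choice of members had used. The Ifitm1 level read 4.74, 2.11 and 4.60 UMIs per 10000 for wild-type hosts (libraries 2, 5, 6), compared with 1.11, 0.0717, 0 and 0.880 for deleted hosts (libraries 3, 4, 7, 8). The means were 3.82 ± 1.48 (SD, n = 3) and 0.514 ± 0.561 (SD, n = 4), on 473 and 55 UMIs in all.

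Ifitm2 was 4.83, 1.43 and 1.87 against 1.04, 0.308, 0.0992 and 0.963, so that wild-type library 2 stood well above the rest. Ifitm3 overlapped, at 3.35, 0.755 and 2.71 against 0.800, 0.751, 0.353 and 0.604, with wild-type library 5 inside the deleted range. Its log2 difference of -1.41 became -0.58 when the part that malignant markers trace was subtracted, up to 2.50 UMIs per 10000 in wild-type library 2. For Ifitm6, 3 wild-type UMIs and 0 deleted UMIs were seen, too few to compare. Median UMIs per NK-like cell were 1404 to 2403 in wild-type and 2503 to 5723.5 in deleted libraries, without overlap. In thinned cells, in the same library order, Ifitm2 was detected in 24.2%, 6.67% and 11.3% of wild-type cells. Deleted hosts gave 21.7%, 4.71%, 3.70% and 5.32%, so the genotypes overlapped. Thinned Ifitm3 shares overlapped too, and Ifitm1 shares did not (5% to 15.2% against 0% to 4.35%). The part of depth in these differences was not tested.

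NK-like cells formed 2 clusters that followed the library sets. Those of libraries 2, 3 and 4 lay mostly in a cluster led by the granzymes Gzmg, Gzmf and Gzmd, and those of libraries 5 to 8 mostly in one led by Gzma, Xcl1 and Il2rb. A few cells of libraries 5, 6 and 8 lay in the granzyme cluster, and they held most of the Ifitm1. In wild-type library 5, 6 of 70 NK-like cells carried 37 of 38 Ifitm1 UMIs, at a mean level of 22.9 UMIs per 10000. In wild-type library 6, 9 of 55 cells carried 97 of 124 (mean level 18.1), and in deleted library 8, 3 of 97 cells carried 13 of 19 (mean level 17.9).

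Within the main cluster of each library, an alternative chosen after seeing the data, the genotypes overlapped for every member. Ifitm1 was 4.74, 0.157 and 1.97 for wild-type hosts (libraries 2, 5, 6), compared with 1.15, 0.0717, 0 and 0.337 for deleted hosts (libraries 3, 4, 7, 8), and the log2 difference was -1.81. Ifitm2 was 4.83, 0.850 and 1.01 against 1.08, 0.308, 0.0992 and 0.787. The absence of overlap over all NK-like cells therefore rests on few cells. Of the NK markers in these main clusters, Klra8, an activating receptor gene, was at 1.15 to 1.72 in wild-type and 0 in every deleted library. Klra4, another receptor gene, was at 1.46 to 2.33 against 0 to 0.112. The 9 NK markers summed to 72.1 to 88.5 in wild-type and 26.8 to 57.3 in deleted libraries, and their part in the Ifitm difference was not tested.

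In the other 4 classes the genotype contrast was tested in the fit across all genes with limma and Benjamini-Hochberg adjustment. No member passed an adjusted p of 0.05 there. In monocyte/macrophage-like cells 0 of 4 were called, against 0.0171% of 5847 genes, although the unadjusted p was under 0.05 for all 4, as for 10.8% of genes. Ifitm3 read 19.3, 27.0, 28.3 and 42.6 UMIs per 10000 for wild-type hosts (libraries 1, 2, 5, 6), compared with 9.07, 10.5, 19.1 and 15.7 for deleted hosts (libraries 3, 4, 7, 8). The genotypes did not overlap, but deleted library 7 came close to wild-type library 1, and 2.8% of all genes tested had every deleted library below every wild-type library. Ifitm3 differed by -1.10 (SE 0.34, limma adjusted p = 0.309).

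Ifitm1 in these cells was 2.15, 3.19, 4.85 and 8.92 against 0.651, 0.965, 3.45 and 1.65, and deleted library 7 was above wild-type libraries 1 and 2. Its difference was -1.44 (limma SE 0.49, adjusted p = 0.345). Ifitm2 differed by -0.90 (limma adjusted p = 0.370) and Ifitm6 by -1.39 (limma adjusted p = 0.399), and both overlapped. With a term for the library set in the limma fit, the adjusted p was 0.0210 for Ifitm1 and Ifitm3 and 0.0291 for Ifitm6, and that fit called 194 genes in this class.

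Cells with a UMI of a C1q gene (C1qa, C1qb or C1qc, complement genes of tissue macrophages) held less Ifitm than those without. The level of Ifitm3 was 17.2 ± 7.86 against 26.0 ± 11.7 UMIs per 10000, that of Ifitm1 2.48 ± 2.0997 against 4.35 ± 2.90 and that of Ifitm6 0.359 ± 0.313 against 1.56 ± 1.34 (SD, n = 8). All 3 were lower in 8 of 8 libraries (log2 differences -0.58, -0.89 and -1.41, exact permutation p = 0.00781, adjusted p = 0.0295 each). Ifitm2 was lower in 7 of 8 and did not pass (adjusted exact permutation p = 0.106).

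Cells with C1q made up 43.6% ± 18.8 of the class in wild-type and 77.2% ± 13.4 in deleted libraries (SD, n = 4 each), so the make-up of the class moved with the genotype. Most wild-type cells lay in clusters 2 (50.5%, led by Mmp13 and Mmp12) and 9 (35.4%, led by Plac8 and Ifitm6, with Ccr2 among its top genes), most deleted cells in clusters 8, 11, 12 and 16. These shares pool the cells of each genotype, so their spread between libraries is not given. Wild-type libraries 1 and 2 held 765 and 817 cells of the class, libraries 5 and 6 held 258 and 387. Within cells with C1q, Ifitm3 was 22.6 ± 7.53 against 11.8 ± 3.02, with no overlap, and within cells without C1q it was 33.6 ± 11.1 against 18.4 ± 6.71, with an overlap (SD, n = 4 each). Fibroblast markers were at 0.0395 to 3.99 in wild-type and 1.48 to 53.3 in deleted libraries, which overlapped. Malignant markers were at 0.901% to 30.6% and 0% to 9.85% of their malignant-cell level and overlapped too. Their highest values were in wild-type library 1 (30.6%), deleted library 4 (9.85%) and wild-type library 2 (7.39%). Subtracting the malignant part left an Ifitm3 difference of -0.83.

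In T-like cells, Ifitm1 was the member without overlap between genotypes. Its level read 5.93, 2.06, 3.12 and 8.71 UMIs per 10000 for wild-type hosts (libraries 1, 2, 5, 6), compared with 1.38, 1.71, 1.43 and 1.24 for deleted hosts (libraries 3, 4, 7, 8). Deleted libraries were tightly grouped and all lay below the spread-out wild-type libraries, as did 2.2% of the 6737 genes tested. The means of 4.95 ± 2.99 and 1.44 ± 0.198 (SD, n = 4 each) differed by -1.46 on the log2 scale (limma SE 0.35), with an adjusted p of 0.105. Called genes made up 0.252% of those tested in this class, and 0 of the 3 members that passed the filter were among them, with 1 at an unadjusted p under 0.05, as for 13.1% of genes. A library-set term in the limma fit brought Ifitm1 to an adjusted p of 0.0106.

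The T-like class itself differed between genotypes. Its 9 T markers summed to 49.8 to 66.3 UMIs per 10000 in wild-type and 35.8 to 49.3 in deleted libraries, without overlap. Cluster shares were taken over the pooled cells of each genotype, so their spread between libraries is not given. Cluster 35, led by Nkg7 and Trbv1 with Cd8b1 and Cd8a, held 19.7% of the pooled wild-type and 0.254% of the pooled deleted cells. Clusters 33 and 25, both led by Cd4, held 4.95% and 1.37% of wild-type and 21.8% and 14.5% of deleted cells. B markers (0.179 to 0.233 against 0.430 to 1.09, with Ms4a1 and Pax5 at 0) and endothelial markers (0.139 to 0.356 against 0.434 to 0.683) did not overlap either, and the part of these in the Ifitm1 difference was not tested.

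Ifitm2 (3.23 ± 1.22 against 2.31 ± 0.88) and Ifitm3 (4.75 ± 1.75 against 3.61 ± 0.72) overlapped in T-like cells (SD, n = 4 each, limma adjusted p = 0.618 and 0.667). The Ifitm3 difference of -0.31 was -0.00147 with the malignant part subtracted. Of the T-like cells, 67.0% ± 8.13 in wild-type and 26.5% ± 8.72 in deleted libraries had a UMI of Cd8a or Cd8b1 (SD, n = 4 each). Within these, Ifitm1 was 2.16 to 11.9 in wild-type and 1.29 to 3.40 in deleted libraries, which overlapped. In cells with Cd4 and no Cd8 UMI it was 1.93 ± 0.59 (n = 3) and 1.99 ± 0.91 (n = 4). Ifitm2 was lower in the Cd8 than in the Cd4 subset in 7 of 7 libraries (2.07 against 4.29, log2 difference -1.20, exact permutation p = 0.0156, adjusted p = 0.0295). The Cd8 subset had the higher median depth in each of these libraries (2227 to 6419 against 1593 to 3862 UMIs per cell), whose part in the result was not tested.

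In fibroblast-like cells, 0 of 3 members passing the filter were called, against 0.12% of 9159 genes, and none had an unadjusted p under 0.05, as 10% of genes did. All 4 members overlapped between genotypes, against 2.23% of genes with every deleted library below every wild-type library. Ifitm3 was 12.9, 29.2, 17.4 and 19.8 in wild-type libraries, against 15.8, 9.015, 18.1 and 11.6 in deleted libraries, and wild-type libraries 1 and 5 lay inside the deleted range. Its difference was -0.52 (SE 0.36, limma adjusted p = 0.650).

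In malignant-like cells, which come from the same line in both hosts, Ifitm3 was 37.7, 46.6, 27.0 and 37.5 in wild-type libraries, against 22.5, 23.2, 20.1 and 31.5 in deleted libraries. Wild-type library 5 fell below deleted library 8, so the genotypes overlapped. The means of 37.2 ± 8.04 and 24.3 ± 4.96 (SD, n = 4 each) differed by -0.60 (SE 0.32, limma adjusted p = 0.510). Ifitm2 was 5.005 ± 2.04 against 2.46 ± 0.88, a difference of -0.95 (SE 0.36, limma adjusted p = 0.310, unadjusted p = 0.0194). Called genes made up 0.324% of the 9266 tested, and neither member was among them. No member had every deleted library below every wild-type library, as 7.07% of genes did. The 8 malignant markers summed to 28.6 to 42.6 in wild-type and 19.2 to 27.6 in deleted libraries, with Epcam at 0 in all. Fibroblast markers reached 16.8 in deleted and 1.19 in wild-type libraries, monocyte and macrophage markers 11.9 and 2.28, and mast and basophil markers 6.27 and 0.355, with overlapping ranges. NK and endothelial markers were lower in deleted libraries without overlap. The part of these lists was not tested. Wild-type libraries held 1164 to 4147 malignant-like cells and deleted libraries 41 to 135, at median UMIs per cell of 9634 to 16637 and 1998 to 15289, and the part of this depth gap was not tested. In malignant-like cells with and without a UMI of Mki67 or Top2a, genes of dividing cells, Ifitm3 was 32.7 ± 9.98 and 31.7 ± 10.3 (SD, n = 6, adjusted exact permutation p = 0.602).

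**Figure D3:**
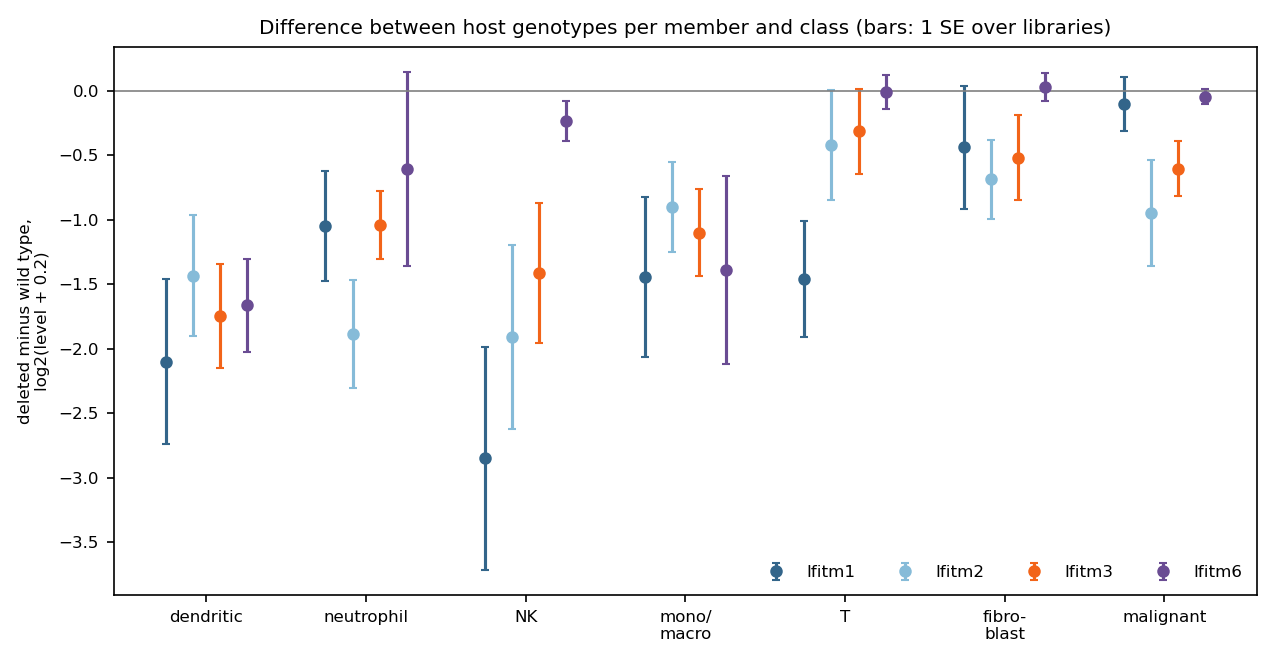
Difference between host genotypes in log2(level + 0.2), deleted minus wild type, for the 4 Ifitm genes in 7 cell classes. Points are differences of the mean over libraries and bars are 1 SE. In dendritic-like cells the points run from -2.101 (Ifitm1) to -1.43 (Ifitm2), and in malignant-like cells Ifitm1 and Ifitm6 lie near 0.

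Whether these differences were larger in some classes than in others was not tested. Class by class, the family sum was 3.38 times higher in wild-type hosts in dendritic-like, 2.22 in neutrophil-like, 2.22 in monocyte/macrophage-like, 1.75 in T-like, 1.51 in fibroblast-like and 1.58 in malignant-like cells. In NK-like cells the ratio was 5.07, on small counts. The sum had no overlap between genotypes in dendritic-like (lowest wild-type library 62.1, highest deleted library 48.9), neutrophil-like (69.5 and 48.1) and NK-like cells (4.29 and 2.94). It overlapped in the other 4 classes.

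Genes induced by the same signals were then described from lists, beside all genes tested in a class. The type I interferon list holds 30 target genes of the interferon alpha and beta receptor, of which 29 were in the files and none is an Ifitm gene. In dendritic-like cells the median log2 difference of its 26 tested genes was -0.94, against 0.07 for all genes. Of these, 11 had every deleted library below every wild-type library, against 1.8% of all genes, and 0 had the reverse. None was called by limma, against 0.055% of all genes, while 21 of 26 had an unadjusted p under 0.05, as 7.91% of all genes did.

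Isg15, a ubiquitin-like interferon effector and by its pattern among the 5 genes most like Ifitm2, had 5.25, 6.45, 7.56 and 22.2 UMIs per 10000 in wild-type libraries, against 1.16, 3.25, 1.69 and 3.99 in deleted dendritic-like cells. The genotypes did not overlap, and wild-type library 6 was far above the rest (log2 difference -1.85, SE 0.43, limma adjusted p = 0.136). The others of the 11, named after their values were seen, were the exonuclease gene Isg20, the transcription factor gene Irf7, the RNA sensor genes Ddx58 and Ifih1, and Ifit1, Ifit2, Ifi204, Parp14, Phf11d and Zbp1. Irf7, a master regulator of interferon production that lies on the same chromosome as the Ifitm genes, had 1.57, 3.23, 1.57 and 3.85 against 0.554, 1.11, 0.353 and 0.948 (limma adjusted p = 0.133).

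In monocyte/macrophage-like cells the list's median was -0.67, against 0.05 for all genes. Every deleted library lay below every wild-type library for 8 of 27, against 2.8% of all genes. None was called, against 0.0171% of all genes, and 14 had an unadjusted p under 0.05, a threshold that 10.8% of all genes passed. T-like cells had a median of -0.48, against 0.08 for all genes, with 11 of 21 at an unadjusted p under 0.05 (13.1% of all genes). The 1 called, against 0.252% of all genes, was Ifit3, an antiviral RNA-binding protein gene. It fell from 0.270, 0.328, 0.429 and 0.345 in wild-type to 0.0800, 0.0503, 0.0776 and 0.143 in deleted libraries (log2 difference -0.92, SE 0.16, limma adjusted p = 0.0419). Leaving out any 1 library took that call away (limma adjusted p from 0.0573 to 0.135), as did either other pseudocount, log means, median-ratio scaling, thinned cells or no filter (0.0507 to 0.366).

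In neutrophil-like cells the type I median was -0.29, against 0.14 for all genes, and 1 of 24 was called, against 0.686% of all genes. An unadjusted p under 0.05 was reached by 3 of the 24 and by 17.1% of all genes. This was Isg20, at 13.1, 10.6, 7.66 and 11.6 in wild-type libraries, against 3.36, 2.80, 3.78 and 4.89 in deleted libraries, with no overlap (log2 difference -1.49, SE 0.28, limma adjusted p = 0.0358). The call was kept without deleted library 7 or 8 and lost without any of the other 6 libraries (limma adjusted p up to 0.136), and it was lost with log means, median-ratio scaling, thinned cells or no filter (0.0510 to 0.329). NK-like cells had a median of -0.09 with 0 of 15 called, against 0.12% of all genes, and with 3 at an unadjusted p under 0.05, as 6.53% of all genes were. Fibroblast-like cells had -0.15 with 0 of 28 called, against 0.12% of all genes, and 6 at an unadjusted p under 0.05, against 10% of all genes.

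The malignant-like cells differed in sign. There the median of the type I list was 0.41, against -0.06 for all genes, with 0 of 28 called (0.324% of all genes) and 10 at an unadjusted p under 0.05 (11.5% of all genes), while Ifitm2 and Ifitm3 had negative differences. Of the 28, 2 lay below 0. Isg20, at 2.74 in wild-type and 1.16 in deleted libraries on average, had no overlap (limma adjusted p = 0.158), and 1 gene had the reverse. The part of other cell types' markers in these cells was not tested. Isg15 was 1.32, 0.868, 0.863 and 1.67 in wild-type libraries, against 3.09, 1.36, 1.60 and 1.26 in deleted libraries, which overlapped (limma adjusted p = 0.583).

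**Figure D4:**
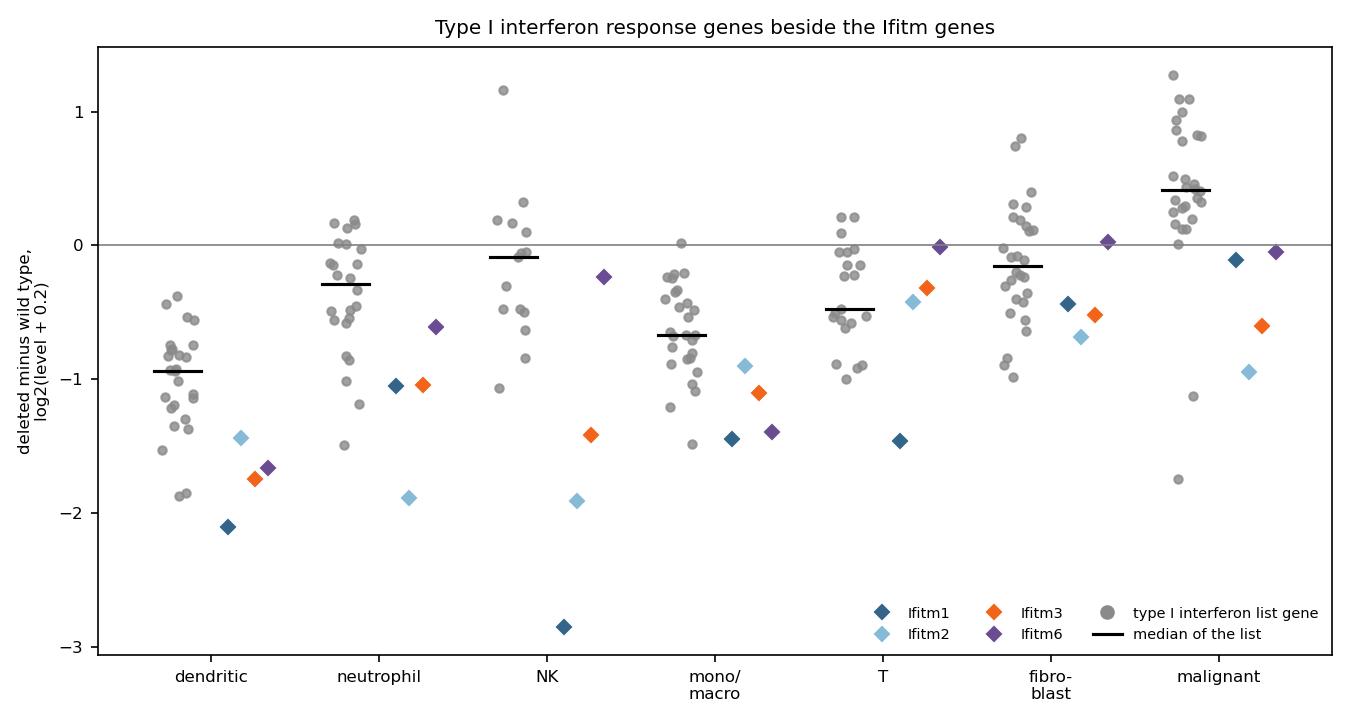
Grey points are the tested genes of the type I interferon list and black lines their median, diamonds are the 4 Ifitm genes, each as the difference between genotypes in log2(level + 0.2), deleted minus wild type. In dendritic-like cells the list's median is -0.94 and all of its genes and all Ifitm genes lie below 0, and in malignant-like cells the list's median is 0.41.

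The 24 interferon gamma targets did not follow the Ifitm genes in neutrophil-like cells. Their median difference was 0.71, against 0.14 for all genes, and 8 of 20 had every deleted library above every wild-type library, against 7.5% of all genes. An unadjusted p under 0.05 was reached by 12 of the 20 and by 17.1% of all genes. Of the 20, 2 were called by limma, both higher in deleted hosts, against 0.686% of all genes called. H2-K1, an MHC class I gene, rose from 15.9, 14.1, 15.3 and 18.4 in wild-type libraries to 52.1, 51.9, 54.6 and 29.1 in deleted ones (log2 difference 1.51, SE 0.29, limma adjusted p = 0.0358). Gbp4, a guanylate-binding protein gene, rose from 0.391, 0.512, 0.330 and 0.758 to 3.82, 2.53, 1.67 and 1.82 (1.90, SE 0.33, limma adjusted p = 0.0237). With median-ratio scaling of summed UMIs, which moved the median of all genes in this class from 0.14 to -0.16, the list's median was 0.38 and neither gene passed. Log means, thinned cells or no filter also ended both calls (limma adjusted p from 0.0975 to 0.450). Leaving out 1 library at a time kept the Gbp4 call in 2 of 8 cases and the H2-K1 call in 1 of 8.

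In dendritic-like and monocyte/macrophage-like cells the gamma medians were -0.35 and -0.34, with 0 of 24 and 0 of 22 called, against 0.055% and 0.0171% of all genes. In each, 5 had an unadjusted p under 0.05, against 7.91% and 10.8% of all genes. NK-like, T-like and fibroblast-like cells had medians of 0.20, 0.21 and 0.01 with no gene called by limma, against 0.12%, 0.252% and 0.12% of all genes. An unadjusted p under 0.05 was reached by 1, 3 and 0 genes, against 6.53%, 13.1% and 10% of all genes. In malignant-like cells the median was 0.42, against -0.06 for all genes, and 9 of 23 had an unadjusted p under 0.05, against 11.5% of all genes. Limma called 1 of the 23, against 0.324% of all genes. This was Iigp1, an interferon-inducible GTPase gene, at 0.607, 0.354, 0.316 and 0.246 in wild-type libraries, against 1.55, 1.14, 1.24 and 0.972 in deleted libraries (log2 difference 1.32, SE 0.25, limma adjusted p = 0.0497). Leaving out any 1 library took that call away, as did a pseudocount of 1 (limma adjusted p = 0.0555) and thinned cells (0.107).

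The receptors and relay proteins of both interferons, 13 genes such as Ifnar1, Ifngr1 and Jak1, had medians from -0.05 to 0.22 over the 7 classes. No gene of theirs was called by limma in any class, against 0.0171% to 0.686% of all genes by class. An unadjusted p under 0.05 was reached by 0 to 2 of them per class, against 6.53% to 17.1% of all genes. Proteins known to bind or modify IFITM proteins, 7 genes such as Cd81, Vapa and Zmpste24, had medians from -0.10 to 0.34, with none called by limma and none at an unadjusted p under 0.05. Of 8 other genes with the same CD225 domain, such as Ifitm5 and Ifitm10, 6 were in the files, and they passed the filter only as 1 gene in NK-like and 1 in malignant-like cells.

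Of 17 genes that flank the cluster on chromosome 7, 16 were in the files and none was called by limma in any class, against 0.0171% to 0.686% of all genes by class. Per class, 0 to 4 of them had an unadjusted p under 0.05, against 6.53% to 17.1% of all genes. The 4 were in malignant-like cells, of 12 tested there, against 11.5% of all genes in that class. Irf7 is also in the type I list. Their medians ran from -0.21 to 0.05. Rnh1, the gene of a ribonuclease inhibitor, was 3.30, 3.15, 3.08 and 3.84 in wild-type libraries, against 0.980, 1.35, 1.30 and 1.04 in deleted monocyte/macrophage-like cells, without overlap, and is named after its values were seen (log2 difference -1.38, SE 0.20, limma adjusted p = 0.0737). Rnh1 had no overlap either in NK-like (mean 1.00 in wild-type against 0.532 in deleted libraries) and malignant-like cells (3.41 against 1.36). In dendritic-like and neutrophil-like cells it overlapped. Every deleted library lay below every wild-type library for 2.8% of all genes in monocyte/macrophage-like, 2.5% in NK-like and 7.07% in malignant-like cells. Genes induced by tissue dissociation had medians from -0.17 (neutrophil-like) to 0.79 (T-like), against 0.14 and 0.08 for all genes in these classes. An unadjusted p under 0.05 was reached by 11 of 18 in T-like cells, against 13.1% of all genes. In each other class 2 to 4 reached it, against 6.53% to 17.1% of all genes. The 1 call was Nr4a1 in T-like cells, against 0.252% of all genes called there. This immediate early nuclear receptor gene was at 0.887, 1.10, 1.64 and 1.32 in wild-type libraries, against 4.70, 2.53, 3.26 and 2.99 in deleted libraries (limma adjusted p = 0.0419, kept in 1 of 8 fits that left out 1 library). That call was lost with either other pseudocount, median-ratio scaling, thinned cells, no filter or without cells with a keratin UMI (limma adjusted p from 0.0507 to 0.186). In dendritic-like and NK-like cells the medians of this list were 0.61 and 0.55. The part of the list in the Ifitm differences, Ifitm1 in T-like cells included, was not tested.

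Likeness of pattern was described by Pearson's r of log2(level + 0.2) over 55 combinations of class and library, which share libraries and depth, among 11263 genes. Ifitm2 and Ifitm3 were among each other's 5 most alike genes (r = 0.80). Ifitm1 followed Ifitm6 (0.76) and Ifitm2 (0.65) more than Ifitm3 (0.24). Most like Ifitm1 were Bcl2a1a (0.89), Il1r2 (0.87), Lmnb1, H3f3a and Samsn1. Ifitm2 was most like S100a11 (0.82), and after Ifitm3 like Tnfrsf1a, Gabarap and Isg15. For Ifitm3 the list was Eif4ebp1 (0.84), Ube2l6 (0.81), St3gal1, Ifitm2 and Pgam1. Among the genes closest to Ifitm6 were Csf2rb2, Csf2rb and Spi1 (0.85 each) and Cdkn1a (0.84).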

How the data were processed

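Single cells of 8 MB49 tumors were measured, 4 per host genotype. Per the submitters' processing notes, Cell Ranger 2.1, Seurat 3.0 and the mm10 build were used. The deposited values are natural log values, ln(1 + UMIs per 10000 UMIs of the cell), as tested on the files: each cell sums to 10000 after reversal, and dividing by the smallest value of the cell gave whole UMIs (within 0.01 of a whole number) for 100% of values. Because levels are means over cells, they were tested with limma and not with a count model.

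Removed were 919 cells for fewer than 200 genes or a mitochondrial share above 10%, and 82 called doublets; at 0.278% of cells the doublet caller can be taken as not having worked, so doublets may remain. Cells were clustered with scanpy 1.11.5 (2000 variable genes, 30 principal components, 15 neighbours, Leiden resolution 1) and named from marker genes, and 2379 cells in unnamed clusters were left out. The Ifitm genes took part in this clustering. Genes with a UMI in at least 5% of cells, in as many libraries as the smaller group has, were tested with limma 3.58.1 in R 4.3.3 on log2(level + 0.2), with Benjamini-Hochberg adjustment over all genes of a class and an adjusted p under 0.05 for a call; the script was tested on simulated data. SE values of members in dendritic-like, neutrophil-like and NK-like cells come from the pooled SD of libraries. Class order and subsets within libraries were compared by two-sided exact sign-flip permutation tests. Promoters came from RefSeq and coding sequences from GENCODE M21.

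Members and gene lists were chosen with earlier results of these data known. The genes named are the 4 members, the 5 genes most like each (of which 1 is not reported here), and up to 4 called genes per list and class, besides those said to be named after their values were seen. Alternatives were other pseudocounts, scalings, thinning, clustering, a library-set term, subtraction of the malignant part, leaving out each library, and, chosen after seeing the data, adding an unnamed low-depth cluster and using the main NK cluster alone.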

Additional observations from a re-analysis of the deposited data

Results flagged for a closer look

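Among 51 groups of libraries checked for a value far from the others, of which chance flags about 1 in 20, there were 2. Ifitm2 in T-like cells was 1.402 UMIs per 10000 in wild-type library 5 and 3.73 to 4.01 in the other wild-type libraries. Ifitm6 in fibroblast-like cells was 0.00866 in deleted library 4 and 0.0327 to 0.0369 in the other deleted libraries. For Ifitm6 in T-like cells the 2 library sets moved in opposite directions, with a log2 difference of 0.23 in libraries 1 to 4 and -0.25 in libraries 5 to 8. That difference between sets was not tested, and the levels behind it were at most 0.0734 UMIs per 10000.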

How the results depend on the processing

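No paired analysis of the genotypes was made because the labels give no pairing between wild-type and deleted libraries. The library set entered only as a term in an alternative fit. Dendritic-like and NK-like cells were few, tumors were not tied to mice, and the doublet caller marked almost no cell, which limits all values here. Of the values computed under an alternative for the main results, 671 kept their direction and side of the threshold, 113 moved, 5 newly passed and 9 reversed. Of the values for called list genes, subset pairs and class pairs, 123 kept direction and side, 154 lost the call and 4 reversed. The cause of these changes was not tested.

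For the members, all differences in dendritic-like and NK-like cells kept their sign. A pseudocount of 1 gave -1.69 for Ifitm1 in NK-like and -0.95 for Ifitm6 in dendritic-like cells. The mean of log values over cells, a scale that by construction weights low levels differently, gave -0.50, -0.49 and -0.45 for Ifitm1, Ifitm2 and Ifitm3 in NK-like cells and -0.46 for Ifitm6 in dendritic-like cells. It gave -1.12 for Ifitm2 in malignant-like cells (limma adjusted p = 0.0259), and 4 neighbouring class pairs each for Ifitm2 and Ifitm3. Subtracting the malignant part gave -0.58 for Ifitm3 in NK-like cells. With a library-set term, Ifitm1 in T-like cells (-1.46, limma adjusted p = 0.0106) and Ifitm1 (-1.44, 0.0210), Ifitm3 (-1.10, 0.0210) and Ifitm6 (-1.39, 0.0291) in monocyte/macrophage-like cells passed. Ifitm1 in fibroblast-like cells turned positive, at 0.0015 with log means, 0.18 with median-ratio scaling and 0.091 with thinned cells.

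Leaving out 1 library at a time, Ifitm6 in neutrophil-like cells ran from -0.98 to 0.014, positive without deleted library 7. The number of neighbouring class pairs that differ ran from 0 to 2 for Ifitm2 and from 0 to 2 for Ifitm3. Unadjusted p-values of these permutation tests cannot go below 0.0156 with 7 libraries, and the subset differences that passed then had adjusted p-values from 0.0379 to 0.0590. Each Cxcr2 and C1q difference that had passed stayed under 0.05 in 1 of 8 such fits. Ifitm6 by Ccr7 and Ifitm2 in Cd8 against Cd4 cells did so in 0 of 8. Among subset differences that had not passed, Ifitm1 with Ccr7 ran from -0.033 (without deleted library 4) to 0.288. Ifitm2 with Mki67 or Top2a ran from -0.073 (without deleted library 7) to 0.076, at -0.031 without wild-type library 2, and Ifitm3 ran from -0.0011 (without deleted library 4) to 0.105. Of the called list genes, Gbp4 and Isg20 kept the call in 2 of 8 such fits, H2-K1 and Nr4a1 in 1, and Ifit3 and Iigp1 in 0.

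The main NK cluster alone gave -1.81, -1.48 and -1.24 for Ifitm1, Ifitm2 and Ifitm3, with genotypes overlapping for each. Adding the low-depth cluster to monocyte/macrophage-like cells gave -1.30, -0.84, -0.99 and -1.13 for the 4 members.

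In dendritic-like cells 4 genes were called, and 7 with thinned cells, 25 with the set term, 17 at clustering resolution 0.5, 0 without the filter and 0 to 7 with 1 library left out. In neutrophil-like cells the 16 became 5 with log means, 2 with median-ratio scaling, 0 with thinned cells, 71 with the set term, 0 without the filter and 0 to 16 with 1 library left out. In NK-like cells the 8 became 4 at a pseudocount of 0.05, 5 with log means, 15 with median-ratio scaling, 13 with the set term, 4 without the filter and 4 to 13 with 1 library left out. In monocyte/macrophage-like cells the 1 became 0 at a pseudocount of 0.05, with log means, with median-ratio scaling, with thinned cells and without the filter, 194 with the set term, 2 at resolution 0.5 and 0 to 3 with 1 library left out. In T-like cells the 17 became 3 at either other pseudocount, 5 with log means, 0 with median-ratio scaling, 7 with thinned cells, 251 with the set term, 55 at resolution 0.5, 0 without the filter and 0 to 24 with 1 library left out. In fibroblast-like cells the 11 became 3 at a pseudocount of 1, 4 with log means, 5 with median-ratio scaling, 4 with thinned cells, 29 with the set term and 3 to 13 with 1 library left out. In malignant-like cells the 30 became 14 at a pseudocount of 1, 1097 with log means, 107 with median-ratio scaling, 1 with thinned cells, 116 with the set term, 271 without the filter and 0 to 49 with 1 library left out.

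The type I median moved to -0.52 (pseudocount 1) and -0.28 (log means) in dendritic-like, -0.34 and -0.19 in monocyte/macrophage-like, -0.072 (log means) in T-like and -0.66 (median-ratio scaling) in neutrophil-like cells. It turned to 0.022 (log means) in NK-like and to 0.0034 (without cells with a keratin UMI) in fibroblast-like cells. The interferon gamma median moved to 0.037 (log means) in malignant-like and 0.38 (median-ratio scaling) in neutrophil-like cells. In fibroblast-like cells it turned to -0.032 with median-ratio scaling, and ran from -0.031 (without wild-type library 1) to 0.14 with 1 library left out, at -0.023 without deleted library 7.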

Other observations

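A cluster of 2281 cells left unnamed for its low depth, led by Ccl12, Ccl24 and Fabp5, had Ifitm3 at 17.2 to 33.97 UMIs per 10000 in the 4 wild-type libraries and at 11.8, 14.5 and 16.1 in deleted libraries 4, 7 and 8, without overlap (deleted library 3 held too few of these cells). Its Ifitm1 was 1.18 to 5.04 and 0.491 to 3.09, with overlap. B-like cells of deleted library 8 had Ifitm3 at 1.91, Ifitm2 at 0.249 and no Ifitm1 or Ifitm6 UMI, and skeletal muscle-like cells of deleted library 3 had Ifitm3 at 2.41, Ifitm2 at 0.853 and Ifitm1 at 0.0504. These values come from single libraries or from a cluster without a name, and no test was made.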
